A study of Mus musculus with 8 samples.

Results

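A group of 8 genes of the Notch pathway was examined for acetylation of histone H3 at lysine 27 (H3K27ac) in a T cell precursor line. They are the receptors *Notch1*, *Notch2* and *Notch3*, the nuclear partners *Rbpj* and *Maml1*, and the targets *Hes1*, *Dtx1* and *Nrarp*. They were taken for their place in the pathway. All 8 were found among 21141 protein-coding genes with a RefSeq position (GRCm38) and a known strand. For each gene, a window was taken that held the gene body and 50 kb on either side.

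The study deleted IkE120, an enhancer upstream of *Ikzf1*, the gene of the transcription factor Ikaros, in P5424 cells, a mouse line that resembles T cell precursors. H3K27ac was mapped by ChIP-seq in wt P5424 cells and in ΔIkE120 P5424 cells, with 1 library for each genotype. The ΔIkE120 cells are a clone obtained by CRISPR/Cas9 and screened for deletion of both alleles, so a property of that clone and an effect of the deletion cannot be told apart. For these cells the study reported reduced *Ikzf1* mRNA and no global change of H3K27ac at promoters. Whether the cells used for ChIP-seq had been stimulated is not stated in the methods used here. With 1 library per genotype no test was possible, and each value below has no replicate error.

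In Notch signalling, a ligand on a neighbouring cell leads to cleavage of the receptor, and its intracellular domain enters the nucleus. There it joins the DNA-binding protein RBPJ and a coactivator of the Mastermind family, and target genes are switched on. Notch1 signalling is required for commitment to the T lineage, and Ikaros is known to restrain Notch targets in T cell precursors. H3K27ac marks active promoters and enhancers, and a peak is a stretch in which the signal was called above background.

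The lists were first set against their labels. The position of IkE120 was covered by 1 peak in wt, over all 252 of its bases, and by 0 peaks in ΔIkE120. All 12 T cell precursor markers, among them *Cd3e*, *Rag1*, *Ptcra* and *Bcl11b*, had a peak within 1 kb of the start in both lists. Of 5 myeloid markers with a position, 1 (*Mpo*) had one in wt and 0 in ΔIkE120. Of 4 erythroid markers 2 (*Klf1* and *Epor*) had one in both lists, while 0 of 4 fibroblast and 0 of 4 pluripotency markers had one in either.

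The list of wt cells held 34550 peaks over 25189005 bases, with a median length of 603 bases. That of ΔIkE120 cells held 29898 peaks over 22141491 bases, with a median length of 628 bases. The ΔIkE120 list was thus the smaller one, with 0.879 times the bases of wt, and ratios between the lists are read beside the values of all genes. The number of reads behind each list is unknown.

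A peak within 1 kb of the gene start was found at 5 of the 8 genes in each list. They were *Notch1*, *Notch2*, *Notch3*, *Maml1* and *Dtx1*, and 0 genes had such a peak in 1 list alone. Over all 21141 genes, a start peak was present in 44.5% in wt and in 43.9% in ΔIkE120. A start peak in wt alone was found in 1.11% of genes and in ΔIkE120 alone in 0.482%. The 3 genes without a peak at the annotated start were *Rbpj*, *Hes1* and *Nrarp*.

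Together the 8 windows held 51 peaks over 39689 bases in wt and 43 peaks over 36899 bases in ΔIkE120. The ratio of covered bases in ΔIkE120 to those in wt was below 1 at 5 of the 7 genes with peaks, with a median of 0.911 and a range of 0.850 to 1.197. The median over 15242 genes with peaks in both lists was 0.922 (quartiles 0.815 and 1.015), and 71.6% of these genes were below 1. With both lists held to 29898 peaks, the most significant of each, 3 of the 7 genes were below 1 and the median was 1.014, beside 0.959 over all genes. The direction of the small difference therefore depended on how many peaks of wt were counted. The share of all genes below 1 with equal numbers of peaks was not counted.

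Of the 7 genes, 0 differed by 1.5 times or more in either direction. Over all genes, covered bases were lower by this much in ΔIkE120 at 8.63% and higher at 1.54%. The peaks themselves were largely shared. In wt, 43 of 51 peaks (84.3%, exact binomial 95% interval 71.4 to 93.0) overlapped a ΔIkE120 peak by at least 1 base, beside 74.4% of the whole list. In ΔIkE120, 41 of 43 (95.3%, 84.2 to 99.4) overlapped a wt peak, beside 86.5% of the whole list. The intervals cover counting error alone and treat peaks as independent, although 21 of the wt peaks lie in the *Notch1* window. The 8 wt peaks without a partner had a median length of 312 bases and a median -log10 q (the significance given by the peak caller, larger for stronger peaks) of 1.73, against 784 bases and 6.51 for the 43 shared peaks. The highest -log10 q among the 8 was 4.67, for a peak in the *Nrarp* window, above the wt list median of 4.12.

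**Figure D1:**
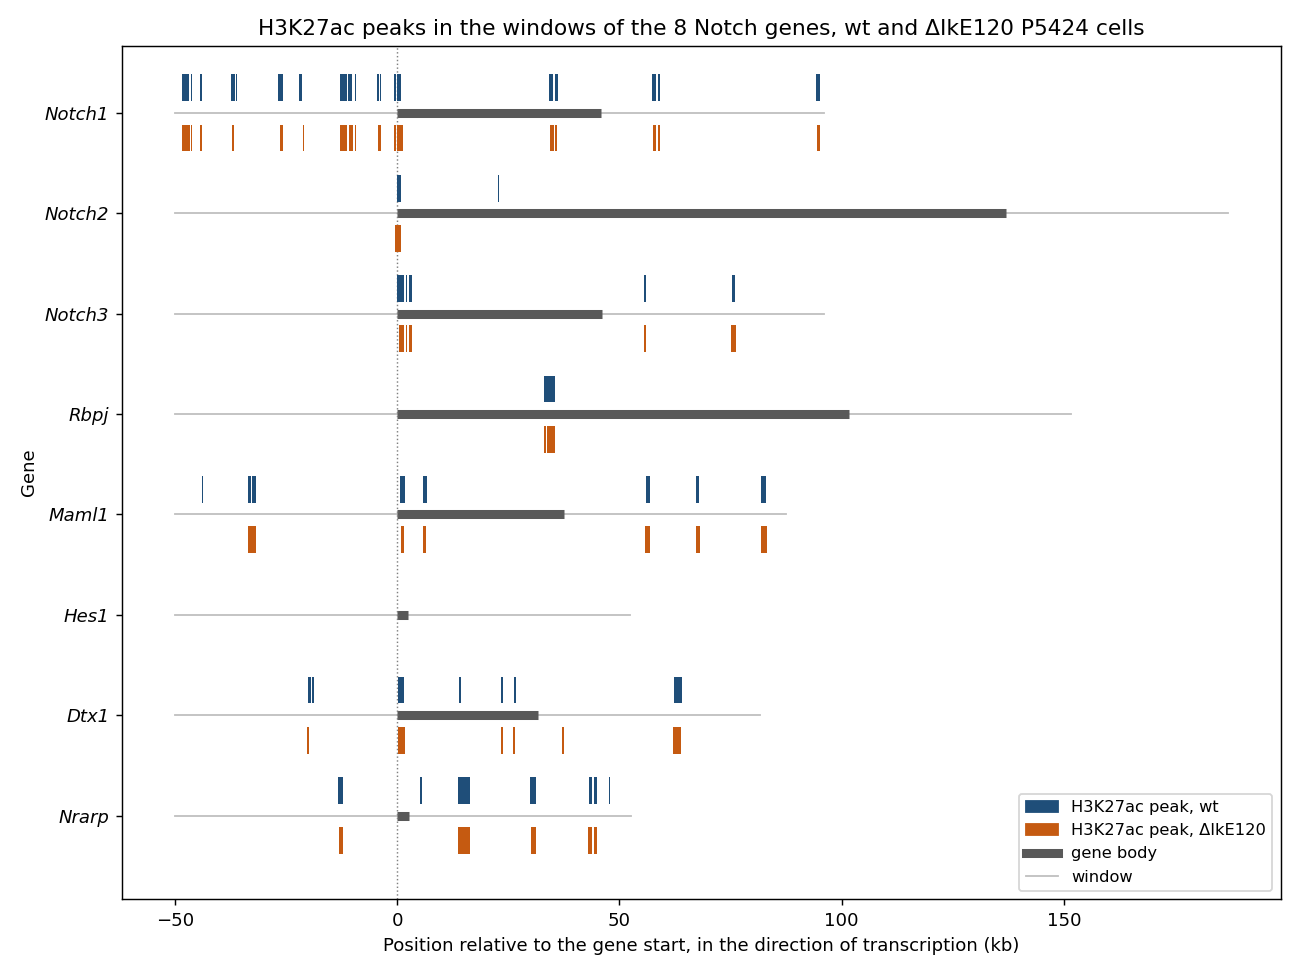
Position of each H3K27ac peak in the 8 windows, in kb from the gene start and in the direction of transcription, with wt peaks above and ΔIkE120 peaks below the gene body (thick line) and window (thin line). *Notch1* has 21 wt and 17 ΔIkE120 peaks with many of them upstream of the start, *Hes1* has 0 in both lists, and the peaks of the remaining genes mostly lie in pairs.

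*Notch1*, the receptor that drives T lineage commitment, lies at chr2:26457902-26503822 on the minus strand. Its window held 21 peaks over 13356 bases in wt and 17 peaks over 12172 in ΔIkE120 (ratio 0.911). More bases were covered there than in the windows of 99.4% of all genes in wt and 99.3% in ΔIkE120. Most of the peaks lay upstream of the gene, 13 in wt and 10 in ΔIkE120. The starts of the neighbours *Inpp5e* and *Sec16a* each carried 1 peak in both lists, with 1700 bases together in wt and 1380 in ΔIkE120.

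The farthest upstream peak of *Notch1* began 46.7 kb from the start in both lists. It was also the longest in wt, chr2:26550529-26552099 with 1571 bases and a fold enrichment over the background of the peak caller of 1.94. A ΔIkE120 peak of 1700 bases, with a fold enrichment of 1.89, covered all of it. Close to the gene, a row of wt peaks between 9.2 and 12.3 kb upstream was matched by 3 ΔIkE120 peaks, 1 of which (chr2:26515055-26516707) joined 2 wt peaks. The peaks without a partner were weak: chr2:26525283-26525803 and chr2:26539772-26540056 in wt, with -log10 q of 1.49 and 3.57, and chr2:26524767-26525007 in ΔIkE120, with 1.87. Inside the gene, 34.2 to 35.6 kb from the start, 3 peaks in wt stood against 2 in ΔIkE120.

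The start of *Notch1* itself lay in a gap between 2 peaks. The peak inside the gene ended at 26503729 in both lists. The peak before the gene began at 26503988 in wt and at 26504125 in ΔIkE120, which made the gap wider in ΔIkE120. The stronger of the flanking peaks had a fold enrichment of 2.15 in wt and 2.17 in ΔIkE120. This was a low value, since the median over all genes with a start peak was 4.16 in wt and 4.31 in ΔIkE120. Among the 941 wt genes in the tenth with the most covered bases around the start peak, where the median was 3.45, *Notch1* was at percentile 3.40.

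*Notch2*, a receptor best known for its role in marginal zone B cells, lies at chr3:98013538-98150367 on the plus strand. It had a sparse window with a strong start peak. Peaks numbered 2 in wt, over 1150 bases, and 1 in ΔIkE120, over 1376 bases. The ratio of 1.197 was above those of 94.1% of all genes, but the gene body alone gave 0.894. The start peak was 890 bases long in wt, with a fold enrichment of 5.56, and 1376 bases long in ΔIkE120, with 4.69. It was thus longer in ΔIkE120, with a lower fold enrichment. The ratio of the fold enrichments, 0.844, was below those of all but 3.94% of 9175 genes with a start peak in both lists. Fold enrichment is given per peak, and whether it differed because the length differed was not tested. The second wt peak, chr3:98036137-98036396 inside the gene, was 260 bases long with a -log10 q of 2.94 and had no partner. When peaks weaker than the median of their own list were left out, its short wt peak among them, the ratio of *Notch2* was 1.546, and 2.44% of all genes with a ratio were then higher by 1.5 times or more and 10.5% lower.

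*Notch3*, a receptor expressed in immature thymocytes, lies at chr17:32120820-32166896 on the minus strand. Its window held 5 peaks in each list, over 3815 bases in wt and 3241 in ΔIkE120 (ratio 0.850). Each of the 5 peaks had a partner, so the difference lay in their length. The peak at the start began inside the gene and was 1605 bases long in wt and 1083 bases in ΔIkE120, where its edge lay 415 bases from the start instead of 21. Its fold enrichment was 2.37 in wt and 2.81 in ΔIkE120. The shorter peak was thus the one with the higher fold enrichment, and a link between length and fold enrichment was not tested. The next 2 peaks, 2.0 and 2.6 kb into the gene, were present in both lists, and the remaining 2 lay downstream of the gene, 55.5 and 75.3 kb from the start in wt.

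Across the receptors, the start peaks of *Notch1* and *Notch3* had a low fold enrichment and that of *Notch2* was above the median in both lists. Among genes with a start peak, the percentile of fold enrichment in wt was 0.765 for *Notch1*, 1.72 for *Notch3* and 91.7 for *Notch2*. In ΔIkE120 the corresponding percentiles were 0.658, 5.13 and 66.7, so the order of the 3 receptors by fold enrichment was the same. By -log10 q the percentiles of *Notch1* and *Notch3* were 26.7 and 24.0 in wt and 26.5 and 44.6 in ΔIkE120, so these 2 changed order on that measure.

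*Rbpj* encodes the DNA-binding protein of the complex. It lies at chr5:53555779-53657445 on the plus strand, and the peak nearest to its annotated start was 33.1 kb away in both lists. A peak was found instead over 2 RefSeq transcript starts inside the gene, at 53590346 and 53590486. In wt it was a single peak of 2330 bases, chr5:53588870-53591199, with a fold enrichment of 3.08. In ΔIkE120 the same stretch was called as 2 peaks of 527 and 1708 bases, the longer with a fold enrichment of 3.13. No other peak was present in the window. The bases covered, 2330 in wt and 2235 in ΔIkE120, gave a ratio of 0.959. Counting every RefSeq transcript start raised the genes with a start peak to 6 of 7 with such an entry in each list, beside 47.5% of 17492 genes in wt and 47.0% in ΔIkE120, an alternative chosen after the data were seen.

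*Maml1*, a coactivator of the Mastermind family, lies at chr11:50255634-50293131 on the minus strand. Its window held 8 peaks over 6297 bases in wt and 7 peaks over 6510 in ΔIkE120 (ratio 1.034). The start peak had a fold enrichment of 4.31 over 1047 bases in wt and 5.21 over 864 bases in ΔIkE120. The ratio of these fold enrichments, 1.209, exceeded those of 92.4% of genes with a start peak in both lists. A second peak 5.9 kb into the gene covered 802 bases in wt and 657 bases in ΔIkE120. The starts of *Sqstm1*, *Mgat4b* and *Canx* carried 4 of the peaks in each list, and without them 2961 bases were left in wt and 2562 in ΔIkE120 (0.865). The median over 13244 genes was 0.884 when peaks at the starts of other genes were left out in the same way.

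*Hes1*, a transcriptional repressor and a classical Notch target, lies at chr16:30065357-30067796 on the plus strand. Its window held 0 peaks in wt and 0 in ΔIkE120. Of all genes, 25.9% had no peak in the window in either list. The peak nearest to the start was 115.4 kb downstream in wt and 69.0 kb upstream in ΔIkE120, with -log10 q of 3.32 and 2.32. *Hes1* thus had no called H3K27ac within its window in either genotype, unlike the other targets.

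*Dtx1*, a Notch target that encodes an E3 ubiquitin ligase of the Deltex family, lies at chr5:120680203-120711867 on the minus strand. Its window held 7 peaks over 5486 bases in wt and 6 peaks over 4937 in ΔIkE120 (ratio 0.900). The start peak lay just inside the gene, with 1440 bases and a fold enrichment of 2.67 in wt and 1412 bases and 2.52 in ΔIkE120. Its -log10 q was 6.67 in wt and 4.20 in ΔIkE120, which was under the median of that list (4.47). The wt median was lower, at 4.12, and the ΔIkE120 start peak would have passed it. Without the peaks weaker than the median of each list, a start peak was thus left in wt alone, as in 1.67% of all genes, beside 0.823% with one in ΔIkE120 alone. The covered bases then fell from 3877 in wt to 0 in ΔIkE120. There the highest -log10 q in the window was 4.44, also above the wt median, so the result depended on the stricter ΔIkE120 cut. Of genes with covered bases in wt, 3.11% had none left in ΔIkE120. The reverse held for 0.913% of genes with covered bases in ΔIkE120. Upstream, 2 wt peaks 18.8 and 19.5 kb from the start stood against 1 ΔIkE120 peak at 19.7 kb. Within the gene, the wt peaks 23.5 and 26.2 kb from the start had partners, and chr5:120697493-120697969 had none. A ΔIkE120 peak downstream of the gene, chr5:120674311-120674867, also had none. A downstream peak over the start of *Rasal1* was present in both lists.

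*Nrarp*, a target that encodes an inhibitor of Notch signalling, lies at chr2:25180758-25183339 on the plus strand. Neither the start nor any base of the gene was covered in either list, although the window held 7 peaks over 7255 bases in wt and 5 peaks over 6428 in ΔIkE120 (ratio 0.886). Most of these bases belonged to neighbours: 4 peaks in each list lay at the starts of *Tor4a*, *Nelfb* and *Tubb4b*, with 5470 bases in wt and 5530 in ΔIkE120. The rest amounted to 1785 bases in wt and to 898 in ΔIkE120 (0.503). These were a shared peak 12.1 kb upstream, of 1182 bases in wt (chr2:25167466-25168647, fold enrichment 3.39) and 898 in ΔIkE120 (4.03), and 2 short wt peaks without a partner, of 339 and 264 bases. Without peaks at the starts of other genes, *Nrarp* was the 1 gene of 7 lower by 1.5 times or more, and 17.1% of all genes were then this much lower. The shared peak was shorter in ΔIkE120 and had a higher fold enrichment there. Leaving out the neighbours' peaks was an alternative chosen after the data were seen.

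**Figure D2:**
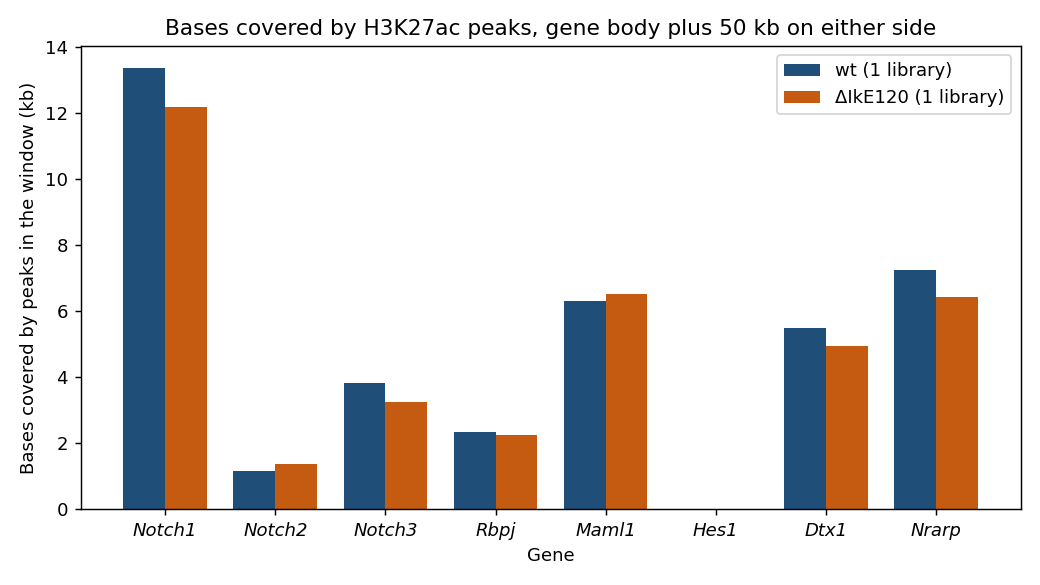
Bases covered by H3K27ac peaks in the window of each gene, in kb, for the wt library and the ΔIkE120 library. The bars are tallest for *Notch1* (13356 bases in wt and 12172 in ΔIkE120) and absent for *Hes1*, and the pair of bars differs by less than 1.5 times at each of the other genes.

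The base at the 5′ end of the gene was covered at 1 of the 5 genes (*Notch2*) in each list, beside 68.5% of 9175 genes in wt and 67.4% in ΔIkE120. *Maml1* had the largest offset, 737 bases in wt and 775 in ΔIkE120, and its RefSeq transcript start, 50292336, was covered in both. From the RefSeq transcript starts of *Dtx1* and *Notch3*, the wt peak was 2 and 15 bases away and the ΔIkE120 peak 72 and 409, so these positions depend on the start used.

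Promoter sequences of RefSeq (GRCm38.p6) were present for 7 of the 8 genes, with 2 starts for *Rbpj*, and *Hes1* had no entry. The 250 bases before the start were rich in G and C, from 56.4% in *Dtx1* to 72.0% in *Notch2*, beside a median of 52.4% over 32851 promoters. They held 15 to 34 CG dinucleotides, beside a median of 6. The edge of a wt peak fell within these bases at *Notch1*, *Notch2* and *Maml1*, and the receptors are shown with the bases inside a wt peak in capitals. At *Notch1*, chr2:26503823-26504072 on the minus strand, a wt peak covered 85 bases and a ΔIkE120 peak 0. At *Notch2*, chr3:98013288-98013537 on the plus strand, the wt peak covered 115 bases and the ΔIkE120 peak all 250. At *Maml1*, which is not shown, the wt peak covered 58 bases and the ΔIkE120 peak 20.
Notch1: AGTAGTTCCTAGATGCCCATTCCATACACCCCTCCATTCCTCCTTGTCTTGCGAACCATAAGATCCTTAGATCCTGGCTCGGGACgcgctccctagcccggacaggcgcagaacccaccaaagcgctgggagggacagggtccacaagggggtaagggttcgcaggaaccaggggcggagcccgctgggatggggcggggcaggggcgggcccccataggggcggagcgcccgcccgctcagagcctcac
Notch2: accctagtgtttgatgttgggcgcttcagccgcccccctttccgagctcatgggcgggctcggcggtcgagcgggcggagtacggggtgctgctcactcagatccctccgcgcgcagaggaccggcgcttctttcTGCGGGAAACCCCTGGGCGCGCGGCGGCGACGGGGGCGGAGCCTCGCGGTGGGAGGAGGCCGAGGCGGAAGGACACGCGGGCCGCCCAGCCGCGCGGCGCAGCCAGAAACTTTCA

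The upstream start of *Rbpj* is shown because it was covered throughout in both lists and because it holds the letters TGGGAA, the core shared by sites of RBPJ and Ikaros. Its 250 bases, chr5:53590096-53590345 on the plus strand, are given with the matches in capitals. TGGGAA was found in bases 149 to 144 before the start and, on the opposite strand as TTCCCA, in bases 65 to 60.
Rbpj: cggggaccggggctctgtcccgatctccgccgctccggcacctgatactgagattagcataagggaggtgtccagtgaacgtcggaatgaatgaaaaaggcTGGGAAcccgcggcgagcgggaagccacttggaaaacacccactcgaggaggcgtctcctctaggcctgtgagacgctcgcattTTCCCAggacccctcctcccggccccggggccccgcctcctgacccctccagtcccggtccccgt

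The same letters were searched in all promoters on both strands. TGGGAA was present in 21.6% of 32851 promoters, and among these genes in *Rbpj* alone. The longer GTGGGAA of RBPJ, which contains TGGGAA, was present in 5.42% of all promoters, TGTGGT of RUNX factors in 14.0% and the E-box CAGCTG in 13.0%, and each was found in 0 of the 7 genes. A pair of GTGGGAA and TTCCCAC within 30 bases was present in 0.00609% of all promoters and in 0 of the 7 genes. These matches describe letters in 250 bases and not binding.

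Beyond these 8 genes, 64 other genes of the pathway were compared. A start peak was present in both lists at 46, in wt alone at 1 (*Maml3*), in ΔIkE120 alone at 1 (*Poglut1*) and in neither at 16. Over all genes, the shares were 43.4% in both lists, 1.11% in wt alone and 0.482% in ΔIkE120 alone. The median ratio of covered bases was 0.953 over 62 genes with peaks in both lists, beside 0.922 over all genes. Of the 62 genes, 41 were below 1, beside 71.6% of all genes. Bases were lower by 1.5 times or more at 4 of the 62 genes, *Lfng*, *Furin*, *Ctbp1* and *Cir1*, and higher by this much at 0, beside 8.63% and 1.54% of all genes. Of the 2 genes without a ratio, *Tle1* had no peak in either list and *Jag1* had 0 peaks in wt and 1 of 211 bases in ΔIkE120.

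Start peaks were also counted by role, without a test between roles. Of 5 ligands *Jag2* had one in both lists, with fold enrichments of 3.40 in wt and 3.38 in ΔIkE120, and *Dll1*, *Dll3*, *Dll4* and *Jag1* had none. *Notch4*, the remaining receptor, had none either. Of 16 genes of receptor processing, 10 had one in both lists, 1 in ΔIkE120 alone and 5 in neither. Of these 5, *Psen2*, *Furin* and *Aph1b* had a peak within 1 kb of a RefSeq transcript start in both lists, under the alternative chosen after the data were seen. Of 7 coactivators 6 had a start peak in both lists, and of 10 corepressors 9 had one, with *Tle1* as the exception. Of 13 genes of turnover and trafficking, 12 had one in both lists. The most covered of them in wt were *Mib2*, *Dtx4* and *Dtx2*, which encode E3 ubiquitin ligases. *Mib2* had 6620 covered bases in wt and 6483 in ΔIkE120, *Dtx4* 6102 and 4425 (ratio 0.725), and *Dtx2* 5605 and 4759. Each of these counts stands beside the 43.4% of all genes with a start peak in both lists.

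Among 12 further targets, 8 had a start peak in both lists, and *Il2ra*, *Hes5*, *Hey2* and *Heyl* had none. *Cd3e*, *Tcf7* and *Ptcra* had the most covered bases of this group in wt. *Cd3e*, a subunit of the T cell receptor complex, had 14838 in wt and 15234 in ΔIkE120. *Tcf7*, a transcription factor of early T cells, had 11720 and 12283. *Ptcra*, the pre-T cell receptor alpha chain, had 10180 and 9721. Of the *Hes* and *Hey* genes examined, *Hes1*, *Hes5*, *Hey2* and *Heyl* had no start peak in either list and *Hey1* had one in both.

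Receptor processing held the 2 genes with the lowest ratios. *Lfng*, a glycosyltransferase that modifies Notch receptors, had 10 peaks over 5911 bases in wt and 5 peaks over 2545 in ΔIkE120 (ratio 0.431). Peaks at the starts of the neighbours *Grifin* and *Ttyh3* held 1828 of these bases in wt and 1057 in ΔIkE120. All 5 ΔIkE120 peaks had a wt partner, and the 5 wt peaks without one covered 1977 bases with -log10 q of at most 2.82. The ratio of *Lfng* was between 0.364 and 0.564 over 5 alternatives, all past 1.5 times. Its gene body alone gave no ratio, with 454 covered bases in wt and 0 in ΔIkE120. *Furin*, the protease that cleaves the Notch precursor, had 10 peaks over 5250 bases in wt and 4 peaks over 3038 in ΔIkE120 (ratio 0.579). Its gene body alone, however, gave 1.439, and 2 of 6 alternatives were past 1.5 times. Peaks at the starts of its neighbours *Hddc3* and *Man2a2* held 1573 bases in wt and 1522 in ΔIkE120. Of the 10 wt peaks of *Furin*, 6 had no partner, with -log10 q of at most 3.45. Over the whole wt list, 8830 of 34550 peaks had no ΔIkE120 partner.

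The other genes past 1.5 times were corepressors. *Ctbp1* had 5314 bases in wt and 3326 in ΔIkE120 (ratio 0.626), and *Cir1*, which binds RBPJ, had 3616 and 2294 (0.634). Both had a start peak in both lists, and *Ctbp1* was past 1.5 times under 2 of 6 alternatives and *Cir1* under 3 of 6. In the *Ctbp1* window, peaks at the start of *Spon2* held 1044 bases in wt and 401 in ΔIkE120. The peak of *Cir1* also lies at the start of *Scrn3*, and its window gave 0.985 without the weaker peaks of each list and 0.337 without peaks at the starts of other genes. At *Maml3*, a coactivator, the wt start peak was 230 bases long with a -log10 q of 3.15, and another peak 1.2 kb inside the gene in wt and 1.3 kb in ΔIkE120 was shared. *Poglut1*, a glucosyltransferase of Notch receptors, had a ΔIkE120 start peak of 548 bases with a fold enrichment of 3.96. Its -log10 q was 3.87, so both start peaks found in 1 list alone were below the median of their list.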

How the data were processed

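H3K27ac ChIP-seq peaks of wt and ΔIkE120 P5424 cells were analysed, with 1 library per genotype. The authors deposited, for each library, a list of broad peaks in 9 columns on GRCm38, called per library. The deposited columns hold a score, a fold enrichment (the ratio over the background of the peak caller), a -log10 p-value and a -log10 q-value. The submitters' processing notes name Bowtie2 2.3.4.3, Bowtie 1.0.0, deepTools 3.2.1 and MACS2 2.1.1 without roles, and the call settings and depth are not given in the sources used here. The height of the signal was therefore not compared beyond the fold enrichment of each peak, which was set by each library's own background. Fold enrichment is 1 value per peak, and how it varies with the length of a peak was not tested.

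Peaks on the mitochondrial genome (3 in wt and 4 in ΔIkE120) were left out, and the 4C-seq libraries were not used here. Gene positions came from RefSeq (GRCm38), with strands from its promoter table or, for 3649 genes, from GENCODE M1 by symbol, for 21141 of 21900 protein-coding genes. A start is the 5′ end of the gene, and a start peak overlaps the 1 kb on either side by at least 1 base. Covered bases were clipped to the window. The genes and lists were chosen with earlier results of these data known. Other pathway genes were named where the start peak was in 1 list alone or covered bases differed by 1.5 times or more. Others were taken from the 3 per role with the most covered bases in wt. Some genes without a start peak in either list, such as *Il2ra*, were named as well. *Hey1* was named beside the other *Hes* and *Hey* genes. Neighbours were named where their start carried a peak. A further marker list is not reported here. Counting and overlap were tested on simulated peaks. Alternatives were flanks of 25 kb and 100 kb or none, start windows of 2.5 kb or the start base, the stronger peaks of each list, equal numbers of peaks and an overlap of 50%; counting every RefSeq transcript start and leaving out peaks at other genes' starts were added after the data were seen. Scripts ran under Python 3.11.15 (pandas 2.3.3, numpy 2.4.6, matplotlib 3.10.9, scipy 1.17.1).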

Additional observations from a re-analysis of the deposited data

How the results depend on the processing

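Of 41 values under alternatives for the counts, median and shares of the 8 genes, 36 moved by less than 1.5 times or stayed within the binomial interval. That interval treats peaks as independent. With the start base alone in place of 1 kb, genes with a start peak were 1 in wt and 1 in ΔIkE120, since the other peaks lay beside the 5′ end of the gene. Without peaks weaker than the median of their list, genes with a start peak in 1 list alone were 1 (*Dtx1*) and genes 1.5 times or more higher in ΔIkE120 were 1 (*Notch2*). *Dtx1* fell from 3877 covered bases to 0 and is in no count of ratios. The median -log10 q was 4.12 in wt and 4.47 in ΔIkE120, so the cut was stricter in ΔIkE120. The strongest ΔIkE120 peak of the *Dtx1* window, at 4.44, would have passed the wt cut. Without peaks at the starts of other genes, an alternative chosen after the data were seen, genes 1.5 times or more lower were 1 (*Nrarp*). The median ratio lay between 0.858 and 1.014 over 6 alternatives, and thus on either side of 1. At 5 of the 7 genes with a ratio, it crossed 1 under at least 1 alternative, at *Maml1* under 4 of 6 and at *Notch1* under 2 of 6. Among these, the gene body alone gave 1.127 for *Notch1* and 0.894 for *Notch2*, the stronger peaks gave 1.066 for *Notch3*, a flank of 25 kb gave 0.933 for *Maml1*, and equal numbers of peaks gave 1.063 for *Dtx1*. *Rbpj* and *Nrarp* were below 1 under each alternative that gave a value. The share of all genes that cross 1 in this way was not counted. Of the 6 named pathway genes tried, *Furin* changed direction in the gene body alone (1.439), and the cause was not tested. The gene body of *Nrarp* held no peak and gave no ratio. No paired analysis was possible because each genotype had 1 library.

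Unknown depth, a single clone and a list of fewer peaks in ΔIkE120 limit each comparison. A missing call is not absence of H3K27ac.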

Other observations

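Fold enrichment of start peaks varied with the covered bases around them. Over 10 equal groups of genes with a wt start peak, the median fold enrichment was 4.68 in the group with the fewest covered bases in the rest of the window and 3.45 in that with the most, and in ΔIkE120 the medians were 4.80 and 3.67. Genes are not independent replicates. Within its own group, *Notch3* was at percentile 0.744 in wt and 3.45 in ΔIkE120, and *Dtx1* at 4.78 and 2.37, while *Maml1* was at 70.7 and 88.2. *Notch2* was at percentile 80.9 in wt and 43.6 in ΔIkE120. Of the 3 further targets with the most covered bases in wt, *Tcf7* and *Ptcra* had start peak fold enrichments of 1.77 and 2.18 in wt and 1.81 and 2.19 in ΔIkE120, and *Cd3e* had 3.17 and 2.68.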
